A study of Mus musculus with 24 samples.

Results

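The effect of losing apolipoprotein D (ApoD) on messenger RNA levels in the aged cerebral cortex was examined on 6 Affymetrix arrays. These were the 3 arrays titled as old ApoD-KO cortex and the 3 titled as old WT cortex, 6 of the 24 arrays of the series. All mice were males of strain C57BL/6J. Old mice were 655 days old and young mice 100 days old, and the remaining 18 arrays held young cortex and both ages of hippocampus in the same genotypes, 3 arrays for each of the 8 groups. Each array received an equimolar pool of total RNA from 2 to 3 randomly picked mice, so a group of 3 arrays reflects the spread between pools and not between single animals. The labels name the genotypes only as ApoD-KO and wild type and give neither the targeting allele nor the hybridization batch.

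ApoD is a secreted lipocalin, a small barrel-shaped protein that carries hydrophobic molecules such as arachidonic acid. In the brain it is made mainly by glia, and it is known to accumulate in the ageing and injured nervous system, where it limits the build-up of peroxidized lipids in membranes. The comparison addresses which other transcripts differ in aged cortex when this protein is missing. The targeted gene, Apod, lies on chromosome 16 at chr16:31296192-31314808 in GRCm38.p6.

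The table identifies each transcript by an Ensembl gene ID and gives its signal on a log2 scale, where a difference of 1 is a 2-fold change. No file pairs these IDs with symbols. The reference gene table lists 0 Ensembl IDs, so 0 of the 23879 IDs could be given a name. Results are therefore given by ID, with no statement of what the gene behind an ID does, and the label of the tissue could not be set against cortical marker genes. Array medians ran from 7.31 to 7.42 log2 over the 24 arrays. The 6 old cortex arrays correlated with each other at r between 0.997 and 0.998 over all IDs. Their root mean square deviation from their group mean lay between 0.078 and 0.091 log2, inside the range of the other arrays.

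In old cortex 1 ID, ENSMUSG00000022548, was far lower in KO than in WT, and no other difference passed the threshold. Of 14327 IDs bright enough to be tested, 1 was called at a limma adjusted p under 0.05, which is 0.00698% of those tested, and it was lower in KO. The ID with the next smallest adjusted p stood at 0.273. At an unadjusted p under 0.05 there were 847 IDs, or 5.91%, where 5% of the tested IDs would be 716. At an unadjusted p under 0.01 there were 184, where 1% would be 143.

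ENSMUSG00000022548 had a signal of 12.22, 12.33 and 12.24 log2 on WT replicates 1 to 3 of old cortex. On KO replicates 1 to 3 it was 8.23, 8.03 and 8.15. The groups were far apart, since the gap between the lowest WT and the highest KO array was many times the spread within either group. The difference was -4.13 log2 (SE 0.088, 95% interval -4.31 to -3.94), a 17.5-fold lower signal in KO (limma adjusted p = 1.8e-18). This ID could not be tied to a symbol from the sources used here, so whether it is the targeted gene itself was not checked. Its fall is therefore not read as a response of another gene to the loss of ApoD. The check of the genotype labels by the targeted gene was not made by name.

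The size of this fall was set beside those of the other ages and regions. KO minus WT was -3.69 log2 in young cortex, -4.23 in old hippocampus and -3.76 in young hippocampus. The mean WT signal was 12.26 ± 0.06 log2 in old cortex and 11.71 ± 0.07 in young cortex (SD, n = 3 each), while the mean KO signal was 8.13 ± 0.10 and 8.02 ± 0.13. The interaction of genotype and age in cortex was -0.43 log2 (SE 0.12, 95% interval -0.69 to -0.17), with an unadjusted p of 0.0022 and a limma adjusted p of 0.544 over all tested IDs. The greater fall in old cortex was thus not past the threshold across the table. The difference in fall between old cortex and old hippocampus was 0.11 log2 (95% interval -0.15 to 0.37, limma adjusted p = 0.999).

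**Figure D1:**
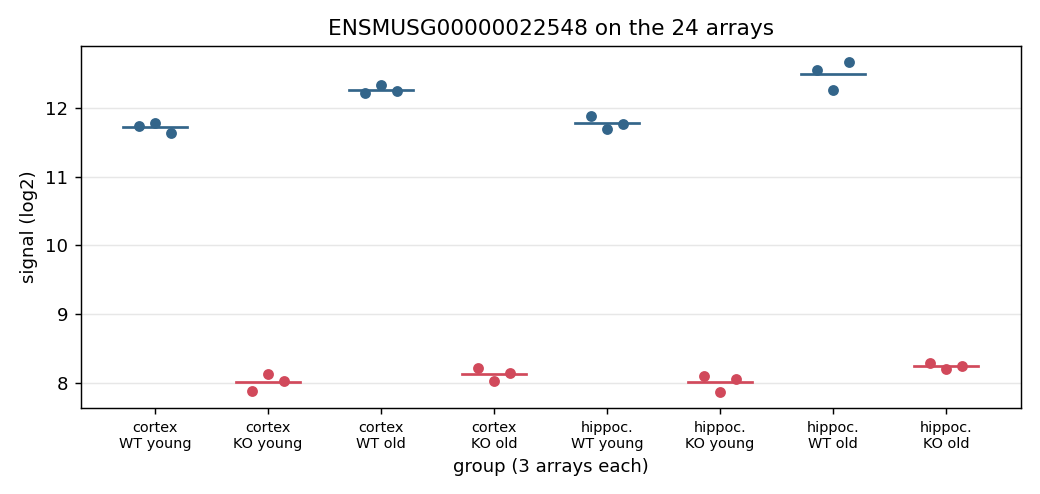
Signal of ENSMUSG00000022548 in log2 (vertical axis) on each of the 24 arrays, grouped by region, genotype and age, with WT in blue, KO in red and a bar at the mean of each group of 3. The old cortex KO arrays sit between 8.03 and 8.23 and the old cortex WT arrays between 12.22 and 12.33.

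**Figure D2:**
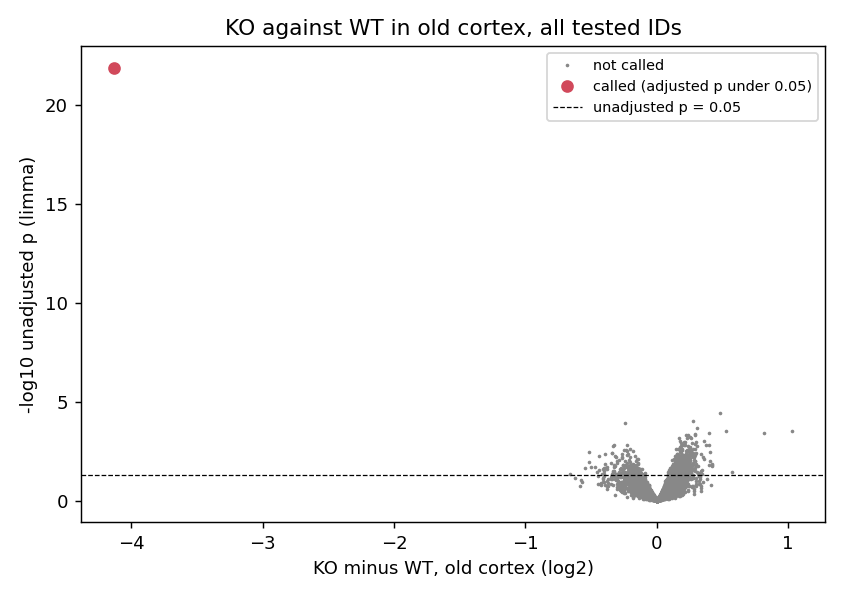
KO minus WT in old cortex in log2 (horizontal axis) against the negative log10 of the unadjusted limma p (vertical axis) for the 14327 tested IDs, with the called ID in red and a dashed line at an unadjusted p of 0.05. ENSMUSG00000022548 stands alone at -4.13 log2, and the next largest difference in size is 1.03 log2.

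The IDs closest to the threshold, apart from the called one, are described by their values. They were picked for their small p in these arrays and none was called. The IDs taken in each direction also had to have KO and WT arrays that do not overlap in old cortex. Their separation was thus set by the choice. ENSMUSG00000083971 had the smallest p among IDs higher in KO. Its signal was 8.41, 8.69 and 8.61 log2 on WT replicates 1 to 3 and 9.08, 9.07 and 9.01 on KO replicates 1 to 3. All KO arrays lay above all WT arrays, as the choice required. The difference was 0.48 log2 (SE 0.093, 1.40-fold, limma adjusted p = 0.273). In the other groups, whose arrays entered its choice only through the filter and the shared spread, KO minus WT was -0.20 log2 in young cortex (95% interval -0.39 to -0.0035), the opposite sign, and -0.04 in old hippocampus (95% interval -0.23 to 0.16).

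ENSMUSG00000048047 had the next smallest p among IDs higher in KO. Its WT signals were 8.73, 8.75 and 8.72 log2 and its KO signals 9.08, 8.90 and 9.03. The WT arrays were tightly grouped, and all KO arrays lay above them, as the choice required. The difference was 0.27 log2 (SE 0.056, 1.21-fold, limma adjusted p = 0.404). In young cortex KO minus WT was -0.04 log2 (95% interval -0.16 to 0.074), and in old hippocampus it was 0.09 (95% interval -0.029 to 0.21).

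Among IDs lower in KO, ENSMUSG00000038593 had the smallest p after the called ID. Its WT signals in old cortex were 8.13, 8.03 and 8.04 log2 and its KO signals 7.82, 7.89 and 7.76. The KO arrays were below the WT arrays without overlap, as the choice required. The difference was -0.24 log2 (SE 0.050, 1.18-fold lower, limma adjusted p = 0.404). In young cortex the 3 KO arrays, at 8.11 to 8.20, lay above the 3 WT arrays, at 8.04 to 8.10, with a difference of 0.08 log2 (95% interval -0.030 to 0.18).

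ENSMUSG00000079610 was the next of these among IDs whose arrays did not overlap, although its p ranked only 28th over all tested IDs. Its WT signals were 7.83, 7.90 and 7.82 log2 and its KO signals 7.62, 7.65 and 7.59. The difference was -0.23 log2 (SE 0.062, 1.17-fold lower, limma adjusted p = 0.703). In young cortex it was 0.01 log2 (95% interval -0.12 to 0.13) and in old hippocampus -0.02 (95% interval -0.15 to 0.11).

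The largest difference in size among uncalled IDs belonged to ENSMUSG00000027971, an ID singled out after its values were seen. Its WT signals in old cortex were 5.60, 6.73 and 5.68 log2 and its KO signals 7.05, 6.97 and 7.07. The KO arrays agreed closely and lay above the WT arrays, of which replicate 2 was well above the other two. The difference was 1.03 log2 (SE 0.24, 2.04-fold, limma adjusted p = 0.533). Without WT replicate 2 it was 1.39 log2 and the ID was called (limma adjusted p = 0.0073), while without WT replicate 1 it was 0.82 and without WT replicate 3 it was 0.86 (limma adjusted p = 1.00 and 0.999). The ID was tested only because its hippocampus arrays are bright. Its mean of 6.00 log2 on the old WT cortex arrays lies below the 6.63 that the mean over 24 arrays had to exceed, so the size of this difference is uncertain.

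This ID was bright in hippocampus and dim in cortex. Its signal lay between 10.1 and 10.4 log2 on all 12 hippocampus arrays, against 5.43 to 7.07 on the 12 cortex arrays. In young cortex 1 KO array, replicate 2, was also raised, at 6.78 log2, while the other 5 lay between 5.43 and 5.79. In old hippocampus KO minus WT was 0.02 log2 (95% interval -0.47 to 0.51).

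Other IDs brighter in hippocampus than in cortex were therefore followed on the old cortex arrays. They were picked on the young arrays of both genotypes, after the values of ENSMUSG00000027971 were seen, and that ID is left out of the values given here. Such IDs could pass the filter through their hippocampus arrays even where they were dim in cortex. For the 7 other IDs more than 8-fold brighter in young hippocampus, the mean signal was 7.56, 7.61 and 7.57 log2 on WT replicates 1 to 3 of old cortex and 7.71, 7.70 and 7.61 on KO replicates 1 to 3. The groups overlapped only through WT replicate 2 and KO replicate 3. Of the 7, 6 were higher in KO, with a median difference of 0.11 log2, and 0 had an unadjusted p under 0.05. For the 35 IDs more than 4-fold brighter in young hippocampus, WT arrays lay between 7.51 and 7.54 log2. KO arrays lay between 7.55 and 7.59, without overlap. Their median difference was 0.05 log2, and 57.1% were higher in KO. An unadjusted p under 0.05 was reached by 4, or 11.4%, of which 3 were higher in KO. For the 177 IDs more than 2-fold brighter in young hippocampus, the mean signal was 8.23 to 8.24 log2 on WT arrays and 8.27 to 8.29 on KO arrays, without overlap. Of these, 16 had an unadjusted p under 0.05, or 9.04% against 5.91% of all tested IDs, and 14 of the 16 were higher in KO. Among all tested IDs at that p, 647 of 847 were higher in KO. For the 158 IDs more than 2-fold brighter in young cortex, WT arrays lay between 9.70 and 9.73 log2. KO arrays lay between 9.70 and 9.76, overlapping them. Of these 158, 2 had an unadjusted p under 0.05, or 1.27%, with 1 higher and 1 lower in KO. The median KO minus WT was 0.03 log2 in both the set of 177 and the set of 158, against 0.01 over all tested IDs. Of the 177 IDs 63.3% were higher in KO, and of the 158 IDs 64.6%, against 57.3% of all tested IDs. For the 24 IDs more than 4-fold brighter in young cortex the median was 0.05 log2. Of these 24, 70.8% were higher in KO and 0 had an unadjusted p under 0.05. The part of hippocampal signal in the old cortex differences was not tested.

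**Figure D3:**
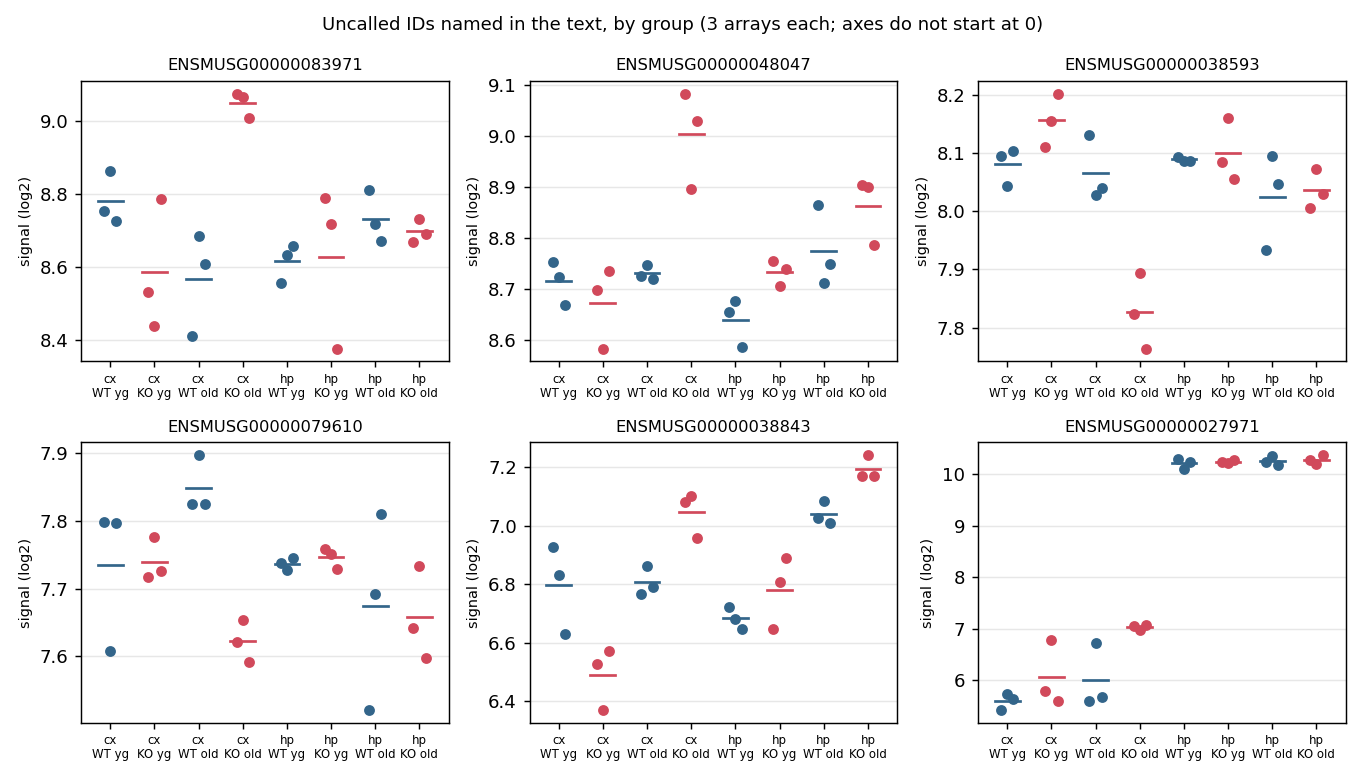
Signal in log2 (vertical axes, which do not start at 0) of the 6 uncalled IDs named in the text on each array, by region, age and genotype (cx, cortex; hp, hippocampus; yg, young), with WT in blue, KO in red and a bar at the mean of each group of 3. In old cortex the KO arrays of ENSMUSG00000083971 sit between 9.01 and 9.08, above all 3 WT arrays. Those of ENSMUSG00000038593 sit between 7.76 and 7.89, below all 3 WT arrays. Both IDs were picked for old cortex arrays that do not overlap.

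Beyond single IDs, the small differences in old cortex leaned to higher signal in KO. Of the 847 IDs at an unadjusted p under 0.05, 647 were higher in KO, 4.52% of those tested, and 200 were lower, 1.4%. The 3 KO arrays lay wholly above the 3 WT arrays for 1231 IDs, 8.59% of those tested, and wholly below for 516, 3.6%. The median KO minus WT over all tested IDs was 0.01 log2, and 57.3% of the IDs had a higher mean in KO. The lean moved with the scaling. After quantile normalization the median difference was -0.0017 log2, of the opposite sign, with 479 IDs higher and 303 lower at an unadjusted p under 0.05. Centring each array on its median gave 770 higher and 167 lower.

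The lean was shared by the 3 KO arrays. Against the mean of the WT arrays, 53.2%, 56.9% and 58.0% of the tested IDs were higher on KO replicates 1 to 3. On WT replicates 1 to 3, 41.8%, 45.5% and 42.8% were higher than the KO mean. Each KO array thus had more IDs above the WT mean than below it, and each WT array fewer above the KO mean. The count of 847 was 507 without WT replicate 1, with 364 higher and 143 lower in KO.

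The lean was stronger among brighter IDs. With the tested IDs divided into 3 equal bins by mean signal, the dimmest bin, from 6.63 to 8.17 log2, held 132 IDs that were higher and 113 that were lower at an unadjusted p under 0.05. The middle bin held 255 higher and 53 lower, and the brightest, from 9.63 to 14.3 log2, 260 higher and 34 lower. The difference between bins was not tested. These counts are for the deposited scaling and were not repeated by bin after quantile normalization. The first principal component of the 6 arrays, with 29.8% of their variance, placed the KO arrays between 3.47 and 7.99 and the WT arrays between -11.1 and 0.052, without overlap but with WT replicate 2 close to the KO arrays.

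The lean of old cortex was set beside the other ages and regions, without a test of the difference. In young cortex 411 IDs had an unadjusted p under 0.05, 2.87% of those tested, of which 254 were higher, 1.77%, and 157 lower in KO, 1.1%. In old hippocampus there were 434, or 3.03%, with 252 higher, 1.76%, and 182 lower, 1.27%. In young hippocampus there were 940, or 6.56%, and these leaned to lower signal in KO, with 224 higher, 1.56%, and 716 lower, 5%. That group holds the array that deviated most from its group mean of all 24, KO replicate 1, at 0.161 log2. The arrays of the 2 genotypes did not overlap for 467 higher and 491 lower IDs in young cortex, 3.26% and 3.43%, for 748 and 531 in old hippocampus, 5.22% and 3.71%, and for 544 and 796 in young hippocampus, 3.8% and 5.56%. In each of these 3 comparisons 1 ID was called, 0.00698% of those tested, and it was ENSMUSG00000022548.

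**Figure D4:**
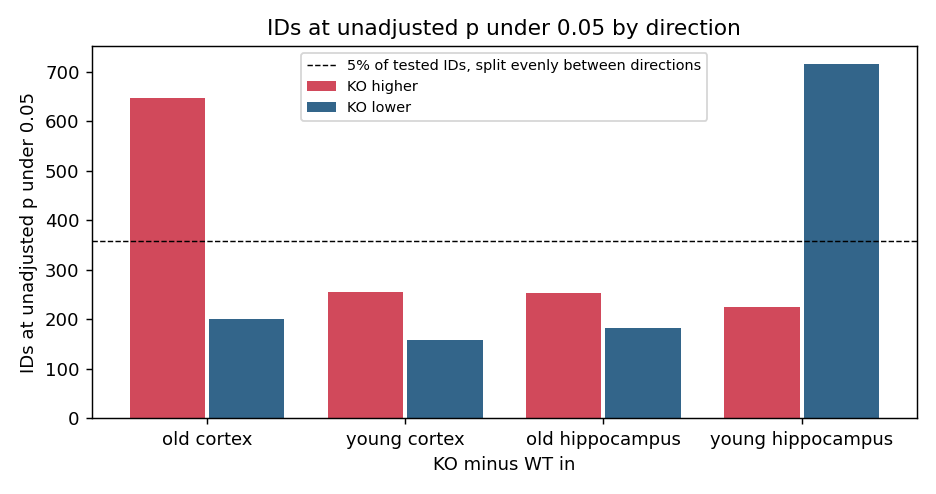
Number of IDs at an unadjusted limma p under 0.05 (vertical axis) that were higher (red) or lower (blue) in KO, for the comparison of KO with WT in each region and age, with a dashed line at 5% of the tested IDs split evenly between directions. Old cortex had 647 higher and 200 lower, against 254 and 157 in young cortex.

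Whether the genotype differences of old cortex differed from those of young cortex was tested as an interaction. With limma 0 IDs were called, or 0%, and the smallest adjusted p was 0.287. An unadjusted p under 0.05 was reached by 889 IDs, 6.21% of those tested. The smallest p belonged to ENSMUSG00000038843. In old cortex its WT signals were 6.77, 6.86 and 6.79 log2 and its KO signals 7.08, 7.10 and 6.96, so that KO lay above WT. In young cortex its WT signals were 6.93, 6.83 and 6.63 and its KO signals 6.53, 6.37 and 6.57, so that KO lay below WT. The interaction was 0.55 log2 (SE 0.10, limma adjusted p = 0.287). The next smallest p was that of ENSMUSG00000083971, with an interaction of 0.68 log2 (SE 0.13, limma adjusted p = 0.287).

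Across IDs, the small genotype differences of old and young cortex tended to have opposite signs. The old and young comparisons share no array. With the called ID left out, their correlation across the other tested IDs was r = -0.236. It lay between -0.265 and -0.140 when each cortex array was left out in turn, and it was -0.248 after quantile normalization. IDs are not independent replicates, so this is a description with no p. The differences of old cortex and young hippocampus, which also share no array, had r = 0.237, of like size and positive sign. Of the 847 IDs at an unadjusted p under 0.05 in old cortex, 266 had the same sign in young cortex, or 31.4% against 43.6% over all tested IDs, and 13 had the same sign with an unadjusted p under 0.05 in young cortex against 40 with the opposite sign.

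**Figure D5:**
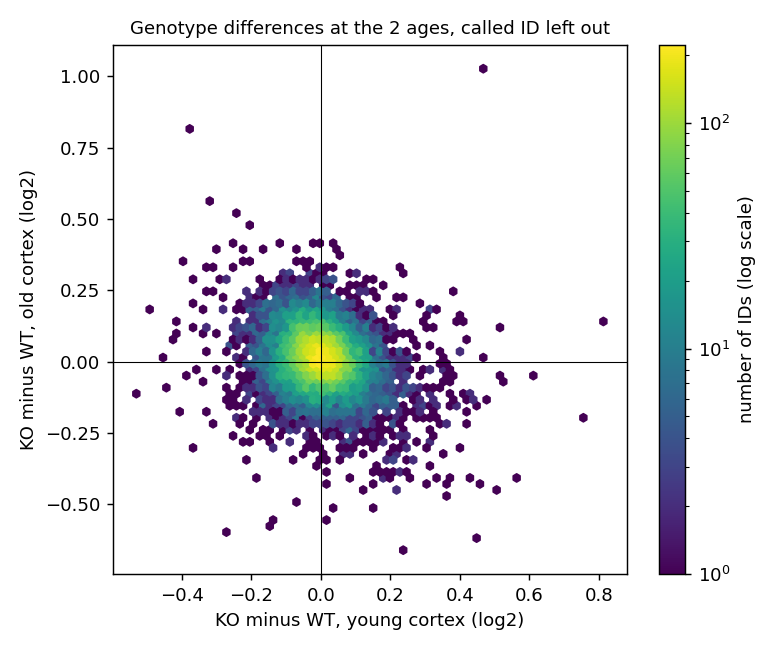
KO minus WT in log2 in young cortex (horizontal axis) against old cortex (vertical axis) for the tested IDs other than ENSMUSG00000022548, with colour giving the number of IDs per hexagon on a log scale. The cloud is centred near 0 on both axes and leans weakly downward to the right, at r = -0.236.

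The same comparison with old hippocampus gave no such opposition. For the interaction of genotype and region in old mice, limma called 0 IDs, or 0%. The smallest adjusted p was 0.999, and 493 IDs, 3.44%, reached an unadjusted p under 0.05. With the called ID left out, the genotype differences of old cortex and old hippocampus had r = 0.075 across IDs. Of the 847 IDs, 487 had the same sign in old hippocampus, or 57.5% against 53.5% over all tested IDs. It is not stated in the labels whether the pools of the 2 regions were drawn from shared animals.

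The precision of the arrays bounds what could have gone unseen. The median SE of KO minus WT in old cortex was 0.075 log2. For 13919 of the 14327 tested IDs, 97.2%, the 95% interval of the difference lay wholly within 0.5 log2 of 0, that is within 1.41-fold in either direction. For 14305 it lay within 1 log2, or 2-fold. These intervals are not adjusted for the number of IDs. Differences smaller than 0.5 log2 in many IDs are therefore not shown to be absent.

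Differences above 0.5 log2 were few. Apart from the called ID there were 12, of which 4 were higher and 8 lower in KO. The arrays of the groups did not overlap for 6 of the 12, against 1747 of all 14327 tested IDs. The 12 were picked for a large difference on these same arrays, so no conclusion is drawn from that count. Their median within-group SD was 0.367 log2, against 0.078 over all tested IDs, and their smallest limma adjusted p was 0.533.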

How the data were processed

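The deposited table holds log2 values per Ensembl gene ID made by the authors. MAS5 and RMA are named in the submitters' processing notes, with no role or version. Array type, annotation build and probe grouping: not given in the sources used here. That the scale is log2 follows from the values, 3.99 to 14.4. Detection calls were not used here, so the background level is unknown.

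With R 4.3.3 and limma 3.58.1, the 14327 IDs with a mean over 24 arrays above the 40th percentile (6.63 log2) were tested and 9552 left out. All 8 group means were fitted with lmFit to all 24 arrays (16 residual degrees of freedom) and moderated with eBayes. Two-sided p-values received Benjamini-Hochberg adjustment over all tested IDs, and an ID was called under 0.05. The procedure was tested on simulated data. Array number limits the precision.

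Named IDs are those called in old cortex, then the 2 in each direction, and the 2 of the interaction with age, that had the smallest p, the former with arrays that do not overlap. As 0 IDs had a symbol, 0 of the 25 planned gene lists, the check of Apod by name and the genes near Apod were run. Comparisons and lists were chosen with earlier results of these data known.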

Additional observations from a re-analysis of the deposited data

Results flagged for a closer look

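Of the named IDs, 2 had KO arrays wholly on opposite sides of the WT arrays in old and young cortex. For ENSMUSG00000038593 the difference between the ages in KO minus WT was -0.31 log2, with KO lower in old cortex and higher in young cortex. For ENSMUSG00000038843 it was 0.55 log2, with KO higher in old cortex and lower in young cortex. The difference was tested as the interaction of genotype and age, and neither passed the threshold (limma adjusted p = 0.287 for each). Both IDs were picked for a small p on some of these arrays, and ENSMUSG00000038593 also for old cortex arrays that do not overlap.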

How the results depend on the processing

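Without each array in turn, the number of IDs called in old cortex ranged from 1 to 2. The second was ENSMUSG00000027971 without old WT cortex replicate 2, and ENSMUSG00000083971 (limma adjusted p = 0.027, between 0.027 and 1.00 over its alternatives) without young KO hippocampus replicate 3, which enters only through the shared spread. The count was 1 with no filter, the 60th percentile as filter, quantile scaling, median centring, an intensity trend, robust moderation, array weights, only cortex arrays or only the 6 compared arrays. IDs at an unadjusted p under 0.05 numbered 507 when old WT cortex replicate 1 was dropped and 1120 when replicate 2 was, the lowest and highest counts among runs without 1 array. The share of them higher in KO ran from 63.3% to 83.3% in those runs. The count was 1200 with no filter and 1221 with array weights, the highest. That share was 76.4% in the main setting, 61.3% after quantile normalization, 82.2% after median centring and 85.8% with the filter at the 60th percentile. Without each array of the compared groups or young KO hippocampus replicate 1, calls ranged from 1 to 9 in young cortex, with 9 without KO replicate 1, from 1 to 2 in old hippocampus, with ENSMUSG00000045625 added without KO replicate 1, and from 0 to 3 for genotype by age in cortex. Of the latter, 2 (ENSMUSG00000038843 and ENSMUSG00000031245) passed when young WT cortex replicate 3 was dropped, and 3 (ENSMUSG00000038843, ENSMUSG00000061897 and ENSMUSG00000071176) when young KO hippocampus replicate 1 was. With array weights 2 were called in old hippocampus, ENSMUSG00000045625 again being the second. Quantile scaling, median centring, array weights and dropping an old cortex array could change the old cortex differences of the 7 named IDs. None of these runs changed a sign. Genotype by region in old mice called 0 under each of its 21 alternatives. The cause of these changes was not tested. With the replicate number as a block, old cortex had 1 call and 823 IDs at an unadjusted p under 0.05. Same-numbered KO and WT arrays of old cortex had deviations correlated at 0.080, -0.100 and -0.095. The numbers are thus not taken to pair them, and not every array correlated best with its own number. The highest values were 0.146, for KO replicate 2 with WT replicate 3, and 0.142, for KO replicate 3 with WT replicate 2. Whether arrays were paired under other numbers was not tested. The runs without an array of a group not compared, other than young KO hippocampus replicate 1, those on the unadjusted count and those on the correlation between ages were chosen after seeing the data.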

Other observations

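Of the 847 IDs at an unadjusted p under 0.05 in old cortex, 594 had the same sign in young hippocampus, or 70.1% against 58.1% over all tested IDs. With ENSMUSG00000022548 left out, the genotype differences of old cortex and young hippocampus had r = 0.237 across IDs, which are not independent replicates.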
